A study of Mus musculus with 4 samples.

Results

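The sirtuins Sirt1 to Sirt7, the NAD salvage enzymes Nampt and Nmnat1, and Parp1 were examined in mouse 2-cell embryos cultured with dimethyl sulfoxide (DMSO), a common solvent. These 10 genes were chosen by symbol, and all 10 were among the 30049 genes of the deposited table. Zygotes, wild type and from BDF1 by BDF1 matings (BDF1 being the first-generation cross of C57BL/6 and DBA/2), were placed at 18 h after hCG injection in KSOM, an embryo culture medium. Control embryos received no addition and DMSO embryos 2% DMSO, each for 24 h. At the 2-cell stage 50 embryos per group were lysed for amplified cDNA sequencing, and each group has 2 libraries. The sources used here do not say whether the replicates came from separate collections, so the p-values measure only the spread between these libraries.

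Sirtuins remove acetyl and other acyl groups from lysines of histones and other proteins, and each reaction uses up NAD+ and releases nicotinamide. Nampt, the rate-limiting enzyme of the salvage pathway, turns nicotinamide into nicotinamide mononucleotide, and Nmnat1 makes NAD+ from it in the nucleus. Parp1 spends NAD+ to build ADP-ribose chains at DNA breaks. Sirt1, Sirt6 and Sirt7 act in the nucleus, Sirt2 mainly in the cytoplasm, and Sirt3, Sirt4 and Sirt5 in mitochondria.

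Levels are given as TPM, the share of a library's transcripts that a gene accounts for after scaling by transcript length, and TPM keep no depth. The depth of these libraries is therefore unknown here, and no counting error can be given. TPM are shares of a library, so a fall in the RNA of 1 gene and a rise in that of others cannot be told apart, nor can fewer cells be told from less RNA per cell. The deposited TPM summed to 768174 and 780527 in control replicates 1 and 2, and to 772487 and 799166 in DMSO replicates 1 and 2. These sums fall short of the total for a whole library, so the deposited genes leave out some of the quantified transcripts. The top 20 genes by level made up 22.1% and 23.6% of the summed TPM in control replicates 1 and 2, and 29.4% and 35.1% in DMSO replicates 1 and 2. Most oocyte and 2-cell embryo markers were present, and the summed level of each list was higher in both DMSO libraries than in either control library. The 8 oocyte markers summed to 1071 and 690.3 TPM in the control libraries and to 2787 and 2159 TPM in the DMSO libraries, with Oosp1 the most abundant. The markers did not all move one way. Bmp15 and Oosp1 were called higher by limma (adjusted p = 0.0221 and 0.0273), whereas Zp3 and Mos were lower in both DMSO libraries without passing the test (log2 fold changes -0.42 and -0.54). The 8 markers of the 2-cell stage summed to 947 and 688 TPM against 3135 and 2102 TPM, with Gm5662 the most abundant on average. Of these 8, limma called 4 higher (Tcstv1, Tcstv3, Gm5662 and Usp17lc), against 6.42% called higher over all genes tested. The maternal oocyte genes Nlrp5 and Padi6 were listed at low values or 0. Nlrp5 was listed at 0, 0.142, 0 and 0.129 TPM and Padi6 at 0.86, 3.32, 0 and 1.65 TPM in control replicates 1 and 2 and DMSO replicates 1 and 2. A listed 0 can be a failed estimate, since Nbn, a DNA repair gene that most cells use (named after its values were seen), was also listed at 0 in all 4 libraries. The part that these shifts play in the values of the 10 genes was not tested. Cumulus and granulosa cell markers (12 genes) summed to at most 3.78 TPM in any library, with Inhba and Amh listed at 0 throughout. Leukocyte markers (6 genes) summed to 4.53 and 1.17 TPM in the control libraries and 2.73 and 14.1 TPM in the DMSO libraries, with Lyz2 at 9.39 TPM in DMSO replicate 2. Oviduct epithelium markers (6 genes) summed to 135 and 121 TPM against 73.5 and 100.4 TPM, with Epcam the most abundant at 103.6 and 92.6 TPM against 36.1 and 55.9 TPM. Epcam was called lower (log2 fold change -1.11, limma adjusted p = 0.0466). Ovgp1, an oviduct secretory product, went the other way, at 17.9 and 19.5 TPM against 26.2 and 33.2 TPM (limma adjusted p = 0.144). Foxj1 stayed at or below 0.0659 TPM. Whether the values of the oviduct list came from oviduct cells or from the embryos themselves was not tested.

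Nampt and Sirt6 had lower TPM in DMSO embryos than in control embryos, each by a little under 3-fold as a share of the library, and these were the only members of the 10 that passed the test. Sirt1, by far the most abundant member, and Parp1 were lower in both DMSO libraries without passing it. Sirt2, a low-abundance member, was higher in both DMSO libraries, again without passing. The other 5 members had overlapping groups.

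Genes were tested with limma on log2(TPM + 1), across the 12038 genes that averaged 1 TPM or more in the 4 libraries, with Benjamini-Hochberg adjustment and a threshold of 0.05. All 10 members passed this filter on the mean, although Sirt5 averaged under 1 TPM in DMSO embryos. The test called 2 of 10 lower and 0 of 10 higher, and limma gave 4 of the 10 an unadjusted p-value under 0.05, against 40.2% of all genes tested. Over all genes tested 20.5% were called, 14.1% lower and 6.42% higher, so the members' share of calls was close to that of the whole table. Of all calls 31.3% were higher on the deposited values, 42.9% after median-ratio scaling and 49.0% after quantile normalization. The median log2 fold change was -0.37 for the 10 members (-0.20 without control replicate 1 and -0.57 without control replicate 2), 0.01 for the 7 sirtuins and -0.09 for all genes tested. After quantile normalization it was -0.16 for the members and 0.01 for all genes tested. The groups did not overlap for 4 members that were lower and 1 that was higher, while over all genes 38.7% were lower and 31.1% higher without overlap, or 69.8% in either direction. For any 1 gene the smallest p that an exact permutation of 2 against 2 libraries can give is 0.333.

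**Figure D1:**
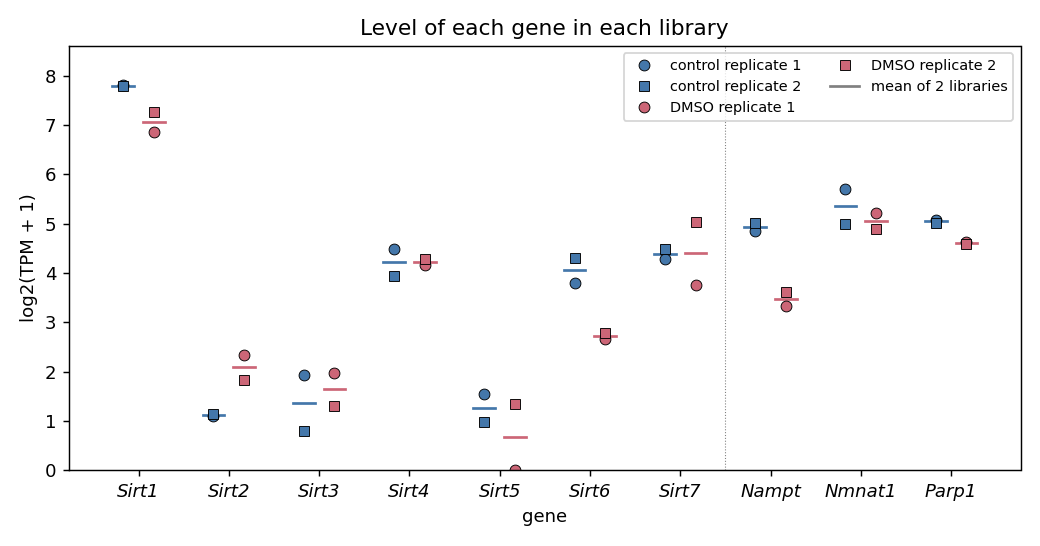
Level of each of the 10 genes in each library, as log2(TPM + 1) on the vertical axis, with circles for replicate 1, squares for replicate 2, blue for control and red for DMSO, and bars at the mean of 2 libraries. Sirt1 lies above all other members in every library, and the control and DMSO points of Nampt, Sirt6, Sirt1, Parp1 and Sirt2 do not overlap.

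The order of the levels, which TPM allows since they are per length, ran from Sirt1 down to Sirt2 in control embryos. Sirt1 stood at 221 ± 3.88 TPM (SD, n = 2), ahead of Nmnat1 at 40.9 ± 14.6 TPM, Parp1 at 32.1 ± 0.943 TPM and Nampt at 29.5 ± 2.48 TPM. Sirt7 (19.96 ± 2.06 TPM), Sirt4 (17.9 ± 5.06 TPM) and Sirt6 (15.8 ± 4.23 TPM) followed, and neighbours among these 3 had overlapping ranges. Sirt3, Sirt5 and Sirt2 lay between 1.18 and 1.78 TPM on average and were not separated from one another. The range of Nmnat1 also overlapped those of Parp1 and Nampt. In control replicate 2 Parp1 (31.5 TPM) and Nampt (31.2 TPM) exceeded Nmnat1 (30.7 TPM). In DMSO embryos the leading 3 kept their order by mean, Sirt1 at 133 ± 27.5 TPM, Nmnat1 at 32.3 ± 5.45 TPM and Parp1 at 23.3 ± 0.463 TPM. In DMSO replicate 2, however, Sirt7 at 31.9 TPM exceeded Nmnat1 and Parp1. Nampt moved from rank 4 to rank 6, below Sirt7 and Sirt4. Sirt2 moved from rank 10 to rank 8, although its range overlapped that of Sirt3.

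The 7 sirtuins together amounted to 283 and 276 TPM in the control libraries and to 156 and 215 TPM in the DMSO libraries. Sirt1 alone made up 79.2% of that sum in each control library, and 73.2% and 71.2% in DMSO replicates 1 and 2. Without Sirt1 the sums were 58.7 and 57.5 TPM against 41.7 and 61.8 TPM, so that the groups overlapped. The 3 mitochondrial sirtuins summed to 26.2 and 16.1 TPM against 19.9 and 21.5 TPM, also overlapping.

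Nampt (ENSMUSG00000020572, chromosome 12 of GRCm38 from 32819545 to 32853349, plus strand) measured 27.7 and 31.2 TPM in control replicates 1 and 2 against 9.07 and 11.3 TPM in DMSO replicates 1 and 2. Both DMSO libraries were far below both control libraries, and the mean was 2.90-fold lower. The log2 fold change of -1.45 had a standard error of 0.29 (95% interval -2.14 to -0.76, limma adjusted p = 0.0254) and was the lowest of the 10 and at the 9.11th percentile of all genes tested. Without any 1 library the change lay between -1.60 and -1.31. The call was lost without control replicate 1 (-1.54, limma adjusted p = 0.103), control replicate 2 (-1.37, 0.188) or DMSO replicate 1 (-1.31, 0.108), fits with 1 residual degree of freedom in which limma called 0 of the 12038 genes, and kept without DMSO replicate 2 (-1.60, 0.0436). Unadjusted p-values under 0.05 numbered 3745, 2602 and 3078 in those 3 fits. The call was also lost without the filter on low values (limma adjusted p = 0.102). None of Nampt's 31-base words, the unit by which the authors' quantifier kallisto assigns reads, occurs in transcripts of another gene.

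Sirt6, a nuclear deacylase of histone tails known for its role at telomeres and in DNA repair (ENSMUSG00000034748, chromosome 10 from 81621785 to 81627797, minus strand), was at 12.8 and 18.8 TPM in control replicates 1 and 2. It was at 5.33 and 5.90 TPM in DMSO replicates 1 and 2, below both control libraries and close to each other. The mean was 2.82-fold lower, a log2 fold change of -1.33 with a standard error of 0.33 (95% interval -2.11 to -0.55, limma adjusted p = 0.0376). Leaving out any 1 library gave changes between -1.59 and -1.07, and each time the call was lost. The limma adjusted p was 0.103 without control replicate 1 and 0.25 without control replicate 2, where the change was -1.07. It was 0.148 without DMSO replicate 1 and 0.0744 without DMSO replicate 2. After median-ratio scaling Sirt6 also missed the threshold, at -1.23 (limma adjusted p = 0.052), as it did without the filter on low values (limma adjusted p = 0.111). Only 0.428% of its 31-base words are shared with other genes.

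**Figure D2:**
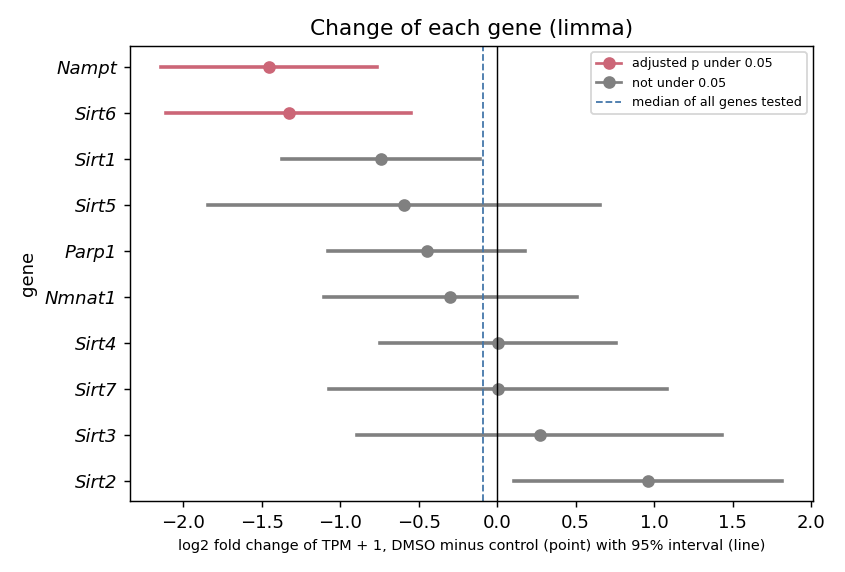
Log2 fold change of TPM + 1, DMSO minus control (horizontal axis, points), with 95% intervals from limma (lines), for the 10 genes on the vertical axis; red marks an adjusted p under 0.05. Nampt and Sirt6 are the red genes, the interval of Sirt2 lies wholly above 0, and the dashed line marks the median of all genes tested at -0.09.

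Promoter sequence is shown for these 2 genes because they fell together. The RefSeq promoter table (GRCm38.p6) had entries for all 10 members, as 13 start sites, and the 250 bases before each start were searched on both strands for 6 motifs chosen after the values had been seen. The core motif of the transcription factor NRF1, taken as GCGC followed by any base, T and again GCGC, occurred before a start of Nampt and of Sirt6 and of none of the other 8 members. It occurred in 2 of the members' 13 windows and in 3.74% of all 32851 such windows. Since the motifs were chosen after the values had been seen, nothing is read from this share. The match stands 49 bases before the Nampt start and 143 bases before the upstream one of 2 Sirt6 starts in RefSeq. These RefSeq starts lie 790 and 231 bases downstream of the outermost GENCODE starts, so both matches are inside the gene spans given above, and 231 of the 250 bases of that Sirt6 window are exonic in GENCODE. Each is given on its gene's strand with 10 bases on either side, the match in capitals (for Nampt the letters match on the opposite strand), at chr12:32820276-32820305 for Nampt and chr10:81627690-81627719 for Sirt6.
Nampt: cccctgcgctGCGCACGCGCagccgtgccc
Sirt6: catcaggaggGCGCATGCGCtctggaaaga
The whole Nampt window, chr12:32820085-32820334 on the plus strand, holds 5 matches to the GC box GGGCGG on either strand, and these and the NRF1 letters are in capitals.
Nampt, 250 bases before the start: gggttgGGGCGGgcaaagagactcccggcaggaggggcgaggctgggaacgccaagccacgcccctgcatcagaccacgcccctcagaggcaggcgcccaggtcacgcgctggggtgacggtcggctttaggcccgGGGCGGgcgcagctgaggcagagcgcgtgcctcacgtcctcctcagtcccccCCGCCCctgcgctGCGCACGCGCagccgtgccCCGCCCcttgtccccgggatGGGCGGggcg
Of the members' 13 windows 10 held a GC box, against 32.7% of all windows, and 6 held the ETS core CCGGAA, against 12%. The 2 Nmnat1 windows overlap and hold the same GC box and ETS core, and by gene 9 of 10 members had a GC box and 5 of 10 an ETS core. The CCAAT box CCAAT stood in 4 (33.8% of all windows), the E box CACGTG in 2 (6.02%) and the TATA box TATAAA in 0 (12.4%). All windows were counted whether or not their genes were expressed here. Many member windows are largely exonic in GENCODE, those of Sirt3 and Sirt7 over all 250 bases. These motifs, too, were chosen after the values had been seen, so nothing is read from these shares. A match of letters is not a measured binding site, and no binding was measured in these libraries.

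Sirt1, the most studied of the nuclear deacetylases (chromosome 10 from 63319005 to 63381704, minus strand), measured 224 and 219 TPM in control embryos against 114 and 153 TPM in DMSO embryos. Both DMSO libraries were lower, and they differed from each other more than the control libraries did. Its log2 fold change of -0.74 (95% interval -1.37 to -0.11, limma adjusted p = 0.086) missed the threshold. Quantile normalization took it to -0.48.

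Parp1 (chromosome 1 from 180568924 to 180601254, plus strand) was at 32.8 and 31.5 TPM in control embryos and at 23.6 and 22.9 TPM in DMSO embryos. Replicates were close together and the groups did not overlap. The log2 fold change was -0.45 (95% interval -1.08 to 0.18, limma adjusted p = 0.237), and -0.25 after quantile normalization. Nmnat1 (chromosome 4 from 149467572 to 149485202, minus strand) was at 51.2 and 30.7 TPM against 36.2 and 28.5 TPM, with groups that overlapped. Its change of -0.30 (95% interval -1.10 to 0.51, limma adjusted p = 0.531) was smaller than the spread between the control libraries, and it was 0.0645 without control replicate 1 and -0.07 after quantile normalization.

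Sirt2, known for removing acetyl groups from tubulin, was at 1.14 and 1.21 TPM in control embryos and at 4.07 and 2.54 TPM in DMSO embryos (chromosome 7 from 28766735 to 28788661, plus strand). Both DMSO libraries were higher, from a level near the filter of 1 TPM. The log2 fold change was 0.96 (95% interval 0.11 to 1.81, limma adjusted p = 0.0948). It was between 0.70 and 1.22 without any 1 library.

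The nucleolar sirtuin Sirt7 (chromosome 11 from 120618372 to 120625240, minus strand) measured 18.5 and 21.4 TPM in control embryos against 12.4 and 31.9 TPM in DMSO embryos. The DMSO replicates lay on either side of the control replicates, and the change of 0.01 (95% interval -1.07 to 1.08, limma adjusted p = 0.991) became 0.65 without DMSO replicate 1 and -0.64 without DMSO replicate 2. Sirt4, a mitochondrial enzyme that restrains glutamate dehydrogenase (chromosome 5 from 115478010 to 115484725, minus strand), was at 21.5 and 14.4 TPM against 17.0 and 18.5 TPM. Its DMSO libraries lay inside the control range, with a change of 0.01 and a 95% interval of -0.74 to 0.76 (limma adjusted p = 0.987). It was 0.28 without control replicate 1, and its sign turned without control replicate 2 (-0.27) or DMSO replicate 2 (-0.05).

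Sirt3, the main mitochondrial deacetylase (chromosome 7 from 140863666 to 140882309, minus strand), was at 2.81 and 0.745 TPM against 2.90 and 1.48 TPM. Replicates differed more than groups (log2 fold change 0.27, 95% interval -0.89 to 1.43, limma adjusted p = 0.695). The sign of that change turned without control replicate 2 (-0.29) or DMSO replicate 1 (-0.06). Sirt5, which removes succinyl groups in mitochondria (chromosome 13 from 43365496 to 43395203, plus strand), was at 1.90 and 0.979 TPM against 8.41e-06 and 1.53 TPM. The DMSO libraries lay on both sides of control replicate 2, the change being -0.59 (95% interval -1.84 to 0.66, limma adjusted p = 0.419), 0.0805 without DMSO replicate 1, -1.26 without DMSO replicate 2 and -1.86 with a pseudocount of 0.1. Of their 31-base words 12.1% and 16.4% are shared with other genes, the highest shares among the 10. Sirt3 also overlaps exons of Ric8a and Psmd13 on the opposite strand, and reads from those stretches cannot be told apart without strand.

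The genes whose course over the 4 libraries was most like that of the called members were looked up among the 5667 genes that averaged 10 TPM or more. Likeness was the root mean square distance of centred log2(TPM + 1) values. For Nampt the nearest were Zpr1 (distance 0.02), Rnf7 (0.03) and Gm9531 (0.03). For Sirt6 they were Wdr53 (0.02), Rpl32 (0.03) and Grb10 (0.05). With 4 libraries and 5667 genes, such near matches only describe these values.

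The rest of NAD metabolism was examined in 4 lists fixed by name, which hold 76 genes, of which 75 were found and 50 tested. limma called 7 of the 50 lower and 4 higher, against 14.1% and 6.42% over all genes tested, and the median log2 fold change was -0.26 against -0.09. The 7 include 2 genes, Xrcc1 and Ccar2, that passed the filter through the control libraries alone and could only be lower, so nothing is read from these shares. The list of other NAD synthesis genes also holds NAD kinases, a carrier and other genes that handle NAD. Of its 22 genes found 9 were tested, with 1 called lower and 0 higher. It was Afmid, which hydrolyses formylkynurenine on the way from tryptophan to NAD+, at 13.9 and 11.2 TPM against 0.952 and 3.42 TPM (log2 fold change -2.20, limma adjusted p = 0.0276), the change being -1.61 without DMSO replicate 1 and -2.79 without DMSO replicate 2. Its value is uncertain, since 44.9% of its 31-base words are shared, mostly with Gm20708. The most abundant of this list, the NAD kinase Nadk, was at 39.3 and 38.0 TPM against 24.0 and 17.2 TPM (limma adjusted p = 0.0713), and the mitochondrial NAD+ carrier Slc25a51 at 30.2 and 22.6 TPM against 20.1 and 15.7 TPM (limma adjusted p = 0.227).

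**Figure D3:**
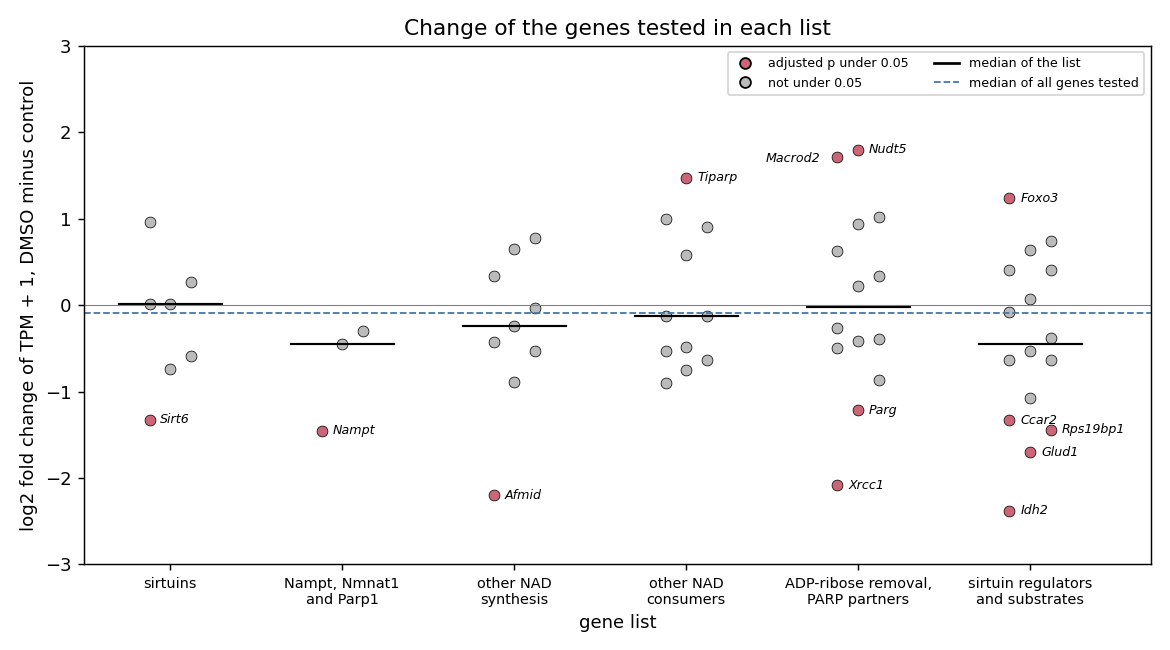
Log2 fold change of TPM + 1, DMSO minus control (vertical axis), of every tested gene in 6 lists (horizontal axis); each point is a gene, red and named where the adjusted p was under 0.05, black bars are list medians and the dashed line is the median of all genes tested. Named genes lie below the line in 5 lists, and Tiparp, Macrod2, Nudt5 and Foxo3 lie above it.

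Of 11 tested genes listed as NAD consumers outside the sirtuins and Parp1, 0 were called lower by limma and 1 higher, against 14.1% and 6.42% over all genes tested. An unadjusted p-value under 0.05 was found for 4 of the 11, against 40.2%. Tiparp, a mono-ADP-ribosyltransferase induced by the aryl hydrocarbon receptor, rose from 439 and 307 TPM to 1306 and 801 TPM (log2 fold change 1.48, limma adjusted p = 0.032). Parp12, also a mono-ADP-ribosyltransferase, was at 261 and 166 TPM against 514 and 333 TPM (limma adjusted p = 0.0802). Both exceeded Parp1 in every library.

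The 14 genes of ADP-ribose removal and PARP partners were all tested, with 2 called lower and 2 higher, against 14.1% and 6.42% over all genes tested. Parg, which breaks down the chains that Parp1 makes, fell from 40.2 and 48.8 TPM to 16.9 and 20.2 TPM (log2 fold change -1.22, limma adjusted p = 0.0328), and missed the threshold after quantile normalization (limma adjusted p = 0.0564) and without DMSO replicate 2 (0.0506). Xrcc1, the repair scaffold that binds those chains, fell from 3.77 and 3.63 TPM to 0.231 and 0 TPM (-2.08, limma adjusted p = 0.0209). It passed the filter through the control libraries alone and could only be called lower, so its p and its place in the count carry no weight. The size of this change depends on the pseudocount, being -4.38 with a pseudocount of 0.1. Macrod2, which removes single ADP-ribose units, rose from 36.8 and 20.3 TPM to 115 and 73.7 TPM (1.71, limma adjusted p = 0.0313). Nudt5, an ADP-ribose hydrolase, rose from 43.4 and 25.5 TPM to 156 and 89.9 TPM (1.80, limma adjusted p = 0.0294), with 19.95% of its words shared. Hpf1, the partner that directs Parp1 to serine residues, was the most abundant, at 919 and 502 TPM against 1580 and 1202 TPM (1.02, limma adjusted p = 0.0803).

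Among 16 tested regulators and substrates of sirtuins, 4 were called lower and 1 higher, against 14.1% and 6.42% over all genes tested. Rps19bp1, an activator of Sirt1, fell from 308 and 336 TPM to 100.2 and 138 TPM (log2 fold change -1.44, limma adjusted p = 0.0235), and Ccar2, an inhibitor of Sirt1, from 3.18 and 3.74 TPM to 0.722 and 0.818 TPM (-1.33, limma adjusted p = 0.0386). Ccar2, too, passed the filter through the control libraries alone and could only be called lower, so its p and its place in the count carry no weight. With a pseudocount of 0.1 the change of Ccar2 was -2.03. Its call was also lost without DMSO replicate 2 (limma adjusted p = 0.0758). The Sirt3 substrate Idh2 fell from 8.13 and 11.5 TPM to 0.322 and 2.19 TPM (-2.38, limma adjusted p = 0.0272). The change of Idh2 was -3.31 with a pseudocount of 0.1, -1.75 without DMSO replicate 1 and -3.01 without DMSO replicate 2. Glud1, the target of Sirt4, fell from 9.63 and 10.6 TPM to 1.92 and 2.999 TPM (-1.70, limma adjusted p = 0.025). Foxo3, a transcription factor deacetylated by sirtuins, rose from 20.4 and 13.2 TPM to 41.9 and 38.2 TPM (1.24, limma adjusted p = 0.0393), and was not called when limma was run without a variance trend (adjusted p = 0.0506) or without DMSO replicate 2 (0.0738). Suv39h1, a histone methyltransferase bound by Sirt1, was at 58.5 and 40.3 TPM against 51.7 and 41.0 TPM, with overlapping groups. Without control replicate 1, control replicate 2 or DMSO replicate 1, or without the filter on low values, limma called 0 genes in all (with 3745, 2602, 3078 and 5368 unadjusted p-values under 0.05), so every call in the 4 lists was lost there. Neither these lists nor the members were tested as sets.

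**Figure D4:**
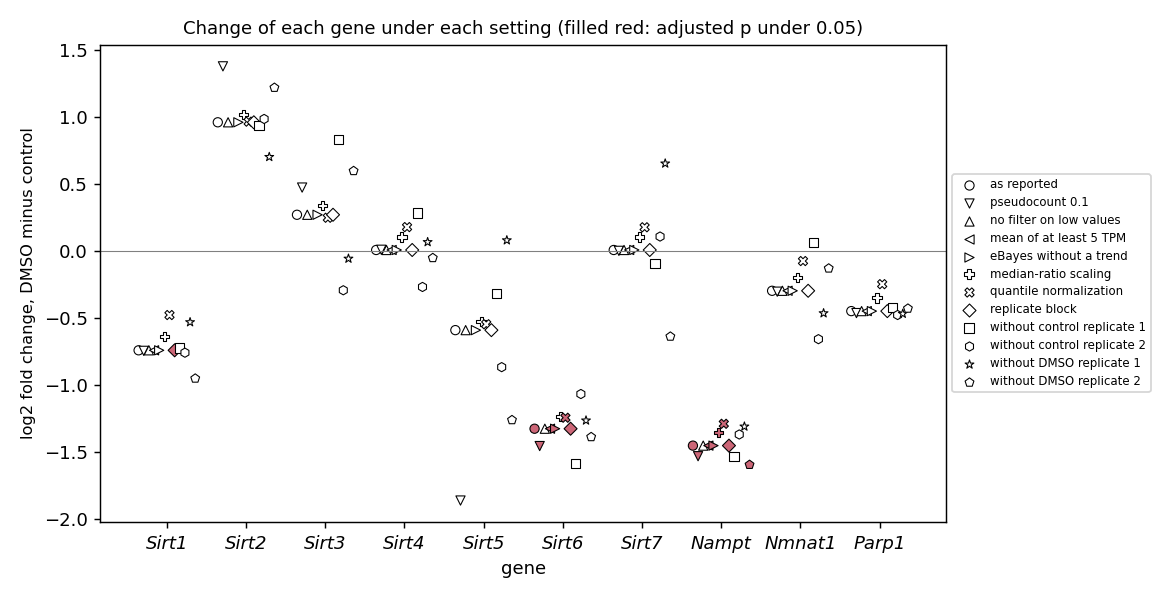
Log2 fold change, DMSO minus control (vertical axis), of the 10 genes (horizontal axis) as reported and under up to 11 other settings, 1 symbol per setting (Sirt2, Sirt3 and Sirt5 were not tested at a minimum mean of 5 TPM), filled red where the adjusted p was under 0.05. Nampt, Sirt6, Sirt1 and Parp1 lie below 0 and Sirt2 above 0 under every setting in which each was tested, while Sirt3, Sirt4, Sirt5, Sirt7 and Nmnat1 have points on both sides.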

How the data were processed

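Per the labels and methods, the authors amplified cDNA with a SMARTer low input kit, ran kallisto against Ensembl transcripts of GRCm38, summed transcripts per gene with tximport and deposited TPM for 30049 genes. Tool versions are not given in the sources used here. The authors tested genes with DESeq2 above a minimum mean count, and no counts were used here. All 4 columns were used, with groups taken from the sample labels.

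TPM were tested with limma 3.58.1 in R 4.3.3 (lmFit, eBayes with a trend, no replicate block) on log2(TPM + 1) over genes averaging 1 TPM or more. Steps were tested on simulated data in which genes changed by more than any of the 10 members did. Whether changes of the members' size would be found was not tested. Symbols, loci and transcripts came from GENCODE M21 (GRCm38), which is not the Ensembl release named in the authors' methods. Python 3.11.15 with pandas 2.3.3 was used for the rest.

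All 10 members were named. From the 4 other lists, called genes and the 2 most abundant of each list were named. The members and lists were chosen with earlier results of these data known. Promoter motifs and neighbouring genes were chosen after values had been seen.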

Additional observations from a re-analysis of the deposited data

How the results depend on the processing

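Nampt, Sirt6, Sirt1 and Parp1 stayed lower under all 11 alternatives, and Sirt2 stayed higher under the 10 that tested it. A minimum mean of 5 TPM tested 7 of the 10 members, leaving out Sirt2, Sirt3 and Sirt5. It changed no call of those 7, and a pseudocount of 0.1 and eBayes without a trend changed no call of the 10. The pseudocount took Sirt5 from -0.59 to -1.86 and Sirt3 from 0.27 to 0.47. Without a trend Foxo3 was not called (limma adjusted p = 0.0506). Without a filter on low values limma tested 22257 genes and called 0, with 5368 unadjusted p-values under 0.05. Of the members and each of the 4 lists 0 were then called, with Sirt6 at -1.33 (limma adjusted p = 0.111) and Nampt at -1.45 (limma adjusted p = 0.102). With median-ratio scaling limma called 2211 of 12038 genes tested and 1 of the 10 members, and Sirt6, at -1.23, was not called. With quantile normalization limma called 2197 of 12038 genes tested, 2 of the 10 members and 2 of 11 other NAD consumers. Sirt6 was then just under the threshold (limma adjusted p = 0.0496), and Parg was not called (limma adjusted p = 0.0564). The members' median was -0.16 with quantile normalization, against -0.37. The causes were not tested.

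The groups share replicate numbers, and across 12038 genes, which are not independent replicates, libraries of the same number deviated together from their groups (r = 0.354). Nothing in the labels says that a number marks a shared collection. With the replicate number as a block, a fit with 1 residual degree of freedom, limma called 5132 of 12038 genes tested and 3 of 10 members. It called 2 of 9 other NAD synthesis genes and 5 of 11 other NAD consumers. Also called were 6 of 14 genes of ADP-ribose removal and PARP partners and 6 of 16 sirtuin regulators and substrates. Sirt1 passed at -0.74 (limma adjusted p = 0.0237). The block changed the call of no other member.

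Leaving out 1 library assumes that the lone library of a group varies like the others and leaves 1 residual degree of freedom. It gave 0 to 1883 called genes, 0 to 1 called members, 0 to 1 other NAD synthesis genes, 0 to 1 other NAD consumers, 0 to 4 genes of ADP-ribose removal and PARP partners, and 0 to 3 sirtuin regulators and substrates. The members' median ran from -0.57 to -0.20. Log2 fold changes ran from -1.60 to -1.31 for Nampt, from -1.59 to -1.07 for Sirt6, from -0.29 to 0.83 for Sirt3, from -0.27 to 0.28 for Sirt4, from -1.26 to 0.0805 for Sirt5, from -0.64 to 0.65 for Sirt7 and from -0.66 to 0.0645 for Nmnat1. TPM keep no depth, so what depth limits cannot be stated.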

Other observations

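Several members have an outermost GENCODE start near that of a gene on the opposite strand. Lzic starts 27 bases from Nmnat1 in GENCODE M21 and measured 44.1 and 44.8 TPM in control embryos against 19.9 and 20.8 TPM in DMSO embryos. It fell (log2 fold change -1.09, limma adjusted p = 0.0353), while Nmnat1 did not pass the test, and the difference between the 2 was not tested. Dnajc12, a J-domain co-chaperone that starts 739 bases from the most upstream GENCODE start of Sirt1 (itself 42669 bases upstream of the RefSeq start), fell from 35.5 and 24.9 TPM to 9.79 and 13.0 TPM (log2 fold change -1.32, limma adjusted p = 0.037). Psmd13, a proteasome subunit whose start overlaps that of Sirt3, was at 7.89 and 20.5 TPM against 5.26 and 6.27 TPM (limma adjusted p = 0.143). Ankrd24, which starts 743 bases from Sirt6, was at 1.88 and 2.16 TPM against 0.687 and 1.06 TPM (limma adjusted p = 0.174). It averaged under 1 TPM in DMSO embryos and passed the filter through the control libraries, so its p carries no weight. Its groups did not overlap, as was so for 69.8% of all genes tested.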
